A study of Mus musculus with 8 samples.

Results

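The genes described here encode the subunits of the AMPA and NMDA receptors of the mouse brain: Gria1, Gria2, Gria3 and Gria4 for the AMPA type, and Grin1, Grin2a, Grin2b, Grin2c, Grin2d and Grin3a for the NMDA type. They were taken by gene symbol from the deposited count table, and all 10 were found among its 54532 genes. The compared groups were 4 RNA libraries labelled Nsun5-KO and 4 labelled WT, from brain tissue of male mice aged 3 months that had been anaesthetised with pentobarbital at 50 mg/kg. The protocols in the labels name 5 mice per genotype, taken from the same litter, and the design text names whole brain. The labels do not describe the Nsun5 allele, and they do not say whether a library holds 1 animal, so the p-values below measure the spread between libraries. The series asks about brain and sleep in mice without Nsun5, an enzyme that methylates ribosomal RNA.

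AMPA and NMDA receptors are glutamate-gated cation channels, each built from several subunits around a shared pore. AMPA receptors carry most fast excitatory transmission, and the subunit GluA2, encoded by Gria2, makes them nearly impermeable to calcium. NMDA receptors require the glycine-binding subunit GluN1, encoded by Grin1, together with GluN2 subunits that bind glutamate, and they pass calcium when glutamate and membrane depolarisation coincide. In the forebrain GluN2B predominates early and GluN2A becomes more abundant with postnatal age, while GluN2C and GluN2D are enriched in other regions and cell types and GluN3A lowers calcium entry.

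The subunits of a family differ at few positions in the pore, and the codon that sets calcium entry is shown here in capitals within 27 bases of transcript sequence from GENCODE M21 (build mm10), read 5′ to 3′ on the coding strand. In the AMPA genes it is the glutamine codon of the Q/R site, which follows a methionine codon and was found in the reading frame by its conserved neighbours, with 1 match in each transcript.
Gria1: ggggccttcatgCAGcaaggatgtgac
Gria2: ggtgcctttatgCAGcaaggatgcgat
Gria3: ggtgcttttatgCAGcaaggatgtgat
Gria4: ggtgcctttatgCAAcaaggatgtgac
The capitals lie at chr11:57243094-57243096 (plus strand) in Gria1, chr3:80706911-80706913 (minus strand) in Gria2, chrX:41610265-41610267 (plus strand) in Gria3 and chr9:4464137-4464139 (minus strand) in Gria4. In Gria2 RNA this codon is known to be edited to an arginine codon by the enzyme encoded by Adarb1. Counts per gene do not show editing or splice forms, so the Gria2 values below are sums over edited and unedited RNA.

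In Grin1 and the GluN2 genes the same place holds an asparagine codon, which is part of the site where magnesium blocks the channel. It was found in the same way, again with 1 match each, and Grin3a was not examined.
Grin1: ggcgtcctgctcAACtctggcattggg
Grin2a: ggcctggtcttcAACaattctgtgccc
Grin2c: gcactggtcttcAACaactctgttccc
Grin2d: gccctggtgttcAACaactccgtgcca
These codons lie at chr2:25297386-25297388 in Grin1, chr16:9653561-9653563 in Grin2a, chr11:115253863-115253865 in Grin2c and chr7:45854393-45854395 in Grin2d, all on the minus strand. Coding sequences of the AMPA genes were 70.6% to 73.1% identical in pairs, with a longest shared run of 41 bases. Those of the GluN2 genes were 64.4% to 69.6% identical, with a longest shared run of 34 bases. How reads that match several genes were counted is not stated.

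The libraries held 15642086 to 17829523 counts. Nsun5 had 1.19 to 1.69 FPKM (fragment counts per gene length and library depth) in libraries labelled Nsun5-KO and 1.20 to 1.43 FPKM in WT. Its edgeR log2 fold change was 0.13 (SE 0.15, adjusted p = 0.817), so its RNA level did not show the knockout. The labels do not describe the allele, so this level cannot bear out or contradict them. Directions are therefore given for libraries by their label. WT replicates 1 and 2 stood apart from the others on the first principal component (-29.7 and -36.0, against 1.75 to 23.8). Their mitochondrial share of counts was also the highest, at 7.27% and 7.68%, against 5.52% to 6.23% in the other 6 libraries, and its part in the results was not tested. The summed FPKM of 10 hypothalamic markers was 2.32 to 15.5 in the libraries labelled Nsun5-KO and 158, 95.6, 96.4 and 4.31 in WT replicates 1 to 4. All 7 general neuronal markers lay above WT, with summed FPKM of 1200 to 1271 in the libraries labelled Nsun5-KO and 983 to 1099 in WT. Markers of single kinds of neuron were divided: 6 of 6 striatal, 4 of 6 thalamic and 2 of 3 inhibitory markers lay below WT. Of the cortical and hippocampal markers 2 of 8 did. The summed FPKM of each of these lists overlapped between the groups. For the striatal markers it was 104 to 369 in the libraries labelled Nsun5-KO and 65.6 to 395 in WT. All 6 oligodendrocyte markers lay below WT, with sums of 678 to 948 FPKM in the libraries labelled Nsun5-KO and 1040.5 to 1136 FPKM in WT. The cerebellar markers Gabra6 and Pcp2 had at most 30 and 19 counts in any library. The part that tissue content played in the results below was not tested, and in bulk RNA fewer cells of a type cannot be told apart from less RNA per cell.

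All 10 subunits were expressed and tested, and none passed the test over all genes. The edgeR quasi-likelihood test with Benjamini-Hochberg adjustment called 0 of 16062 genes (0%) at an adjusted p below 0.05, and 1663 (10.4%) had an unadjusted p below 0.05, of which 852 were higher (5.3%) and 811 lower (5.05%). DESeq2 called 94 of the 14186 genes it gave an adjusted p (0.663%), with 0 of the 10 subunits among them. Of the subunits 7 lay above WT and 3 below, where 48.6% of all genes lay above and 51.4% below, with a median log2 fold change of 0.05, against a median of -0.01 over all genes. Only Gria1, which was lower, had an unadjusted p below 0.05. Subunits whose FPKM did not overlap between the groups numbered 0 of 10, against 5.77% of all genes tested.

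**Figure D1:**
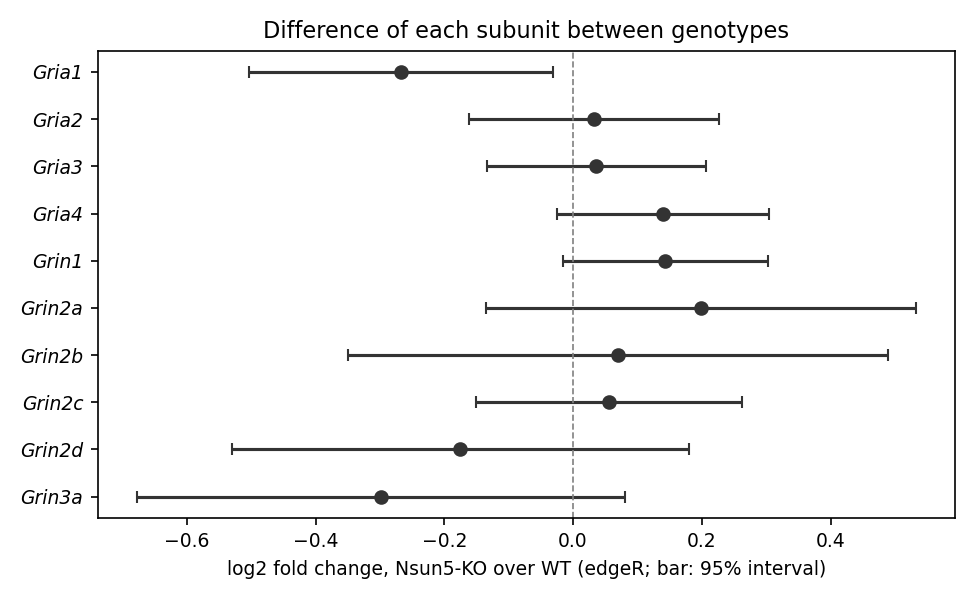
Log2 fold change of each receptor subunit, Nsun5-KO over WT, from the edgeR fit over all genes; points are estimates and bars 95% intervals. The interval of Gria1 (-0.50 to -0.03) lies below 0, and the other 9 include 0.

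Within the AMPA family the mean share of Gria1 was smaller in the libraries labelled Nsun5-KO and that of Gria2 larger, with groups that did not overlap but adjusted p-values above 0.05. Gria1 encodes GluA1, the subunit of activity-dependent receptor insertion, and lies at chr11:57011387-57330244. It had 58.9, 57.3, 77.6 and 62.7 FPKM in replicates 1 to 4 labelled Nsun5-KO, against 81.8, 84.8, 76.0 and 65.1 FPKM in WT replicates 1 to 4. Replicate 3 labelled Nsun5-KO reached the WT range, so the levels overlapped. The log2 fold change was -0.27 (SE 0.11, 95% interval -0.50 to -0.03, edgeR adjusted p = 0.436), with a DESeq2 adjusted p = 0.338. Leaving out WT replicates 1 and 2 gave -0.14, and leaving out replicates 1 and 3 labelled Nsun5-KO gave -0.36.

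Gria2 (chr3:80681450-80802835) had 39.5, 36.1, 47.1 and 38.4 FPKM in the libraries labelled Nsun5-KO and 38.1, 43.3, 39.2 and 36.3 FPKM in WT. The ranges nearly coincided, and the log2 fold change was 0.03 (SE 0.09, 95% interval -0.16 to 0.23, edgeR adjusted p = 0.930). Gria3, the X-linked AMPA subunit (chrX:41400854-41678601), had 25.9, 22.5, 29.0 and 25.0 FPKM in the libraries labelled Nsun5-KO and 24.3, 25.8, 24.3 and 25.2 FPKM in WT. The WT libraries lay within the spread of the other group, and the log2 fold change was 0.04 (95% interval -0.13 to 0.21). Gria4, a fast-gating subunit (chr9:4417896-4796234), had 18.8, 19.99, 18.9 and 17.0 FPKM in the libraries labelled Nsun5-KO, against 18.5, 16.8, 15.4 and 16.9 FPKM in WT. Replicates 1 to 3 labelled Nsun5-KO exceeded every WT library and replicate 4 did not. Its log2 fold change was 0.14 (SE 0.08, edgeR adjusted p = 0.550).

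**Figure D2:**
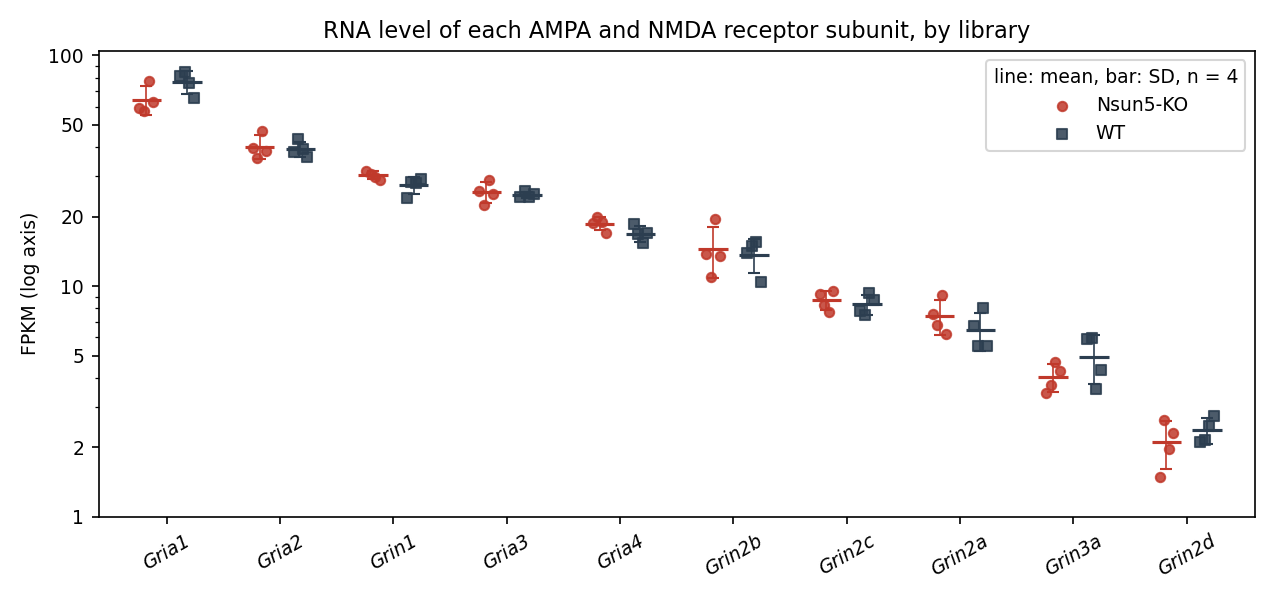
FPKM of the 10 subunits on a log axis, with a point for each library, a line for the mean and a bar for the SD of 4 libraries. The subunits span from Gria1, at 57.3 to 84.8 FPKM, down to Grin2d, at 1.49 to 2.74 FPKM, and the groups overlap in each of them.

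As shares of the summed FPKM of the 4 AMPA genes, Gria1 made up 41.2%, 42.2%, 45.0% and 43.8% in replicates 1 to 4 labelled Nsun5-KO, against 50.3%, 49.7%, 49.1% and 45.4% in WT replicates 1 to 4. The groups did not overlap, with WT replicate 4 closest to the other group. The means were 43.0% ± 1.69 in the libraries labelled Nsun5-KO and 48.6% ± 2.19 in WT (SD, n = 4 each), a difference of -5.57 percentage points. An exact two-sided permutation test over 70 labelings gave p = 0.0286, the smallest it can give, and 0.171 after Benjamini-Hochberg adjustment over the 12 shares and ratios compared here. The difference therefore did not pass the adjusted threshold of 0.05. A value at this smallest p passes it only when most of the 12 reach that p, so a single share could not pass.

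Gria2 made up 27.6%, 26.5%, 27.3% and 26.8% of the AMPA sum in the libraries labelled Nsun5-KO, against 23.4%, 25.4%, 25.3% and 25.3% in WT. These ranges did not overlap either. The means were 27.1% ± 0.475 in the libraries labelled Nsun5-KO and 24.8% ± 0.943 in WT (SD, n = 4 each; exact permutation p = 0.0286, adjusted p = 0.171). The shares of a sum are not independent, since a smaller Gria1 share enlarges the others. Both shares also had separate groups when computed from counts that were not scaled by length and with transcript lengths. Leaving out WT replicates 1 and 2 gave differences of -4.20 percentage points for Gria1 and 1.77 for Gria2.

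Gria3 made up 17.2% ± 0.695 of the AMPA sum in the libraries labelled Nsun5-KO and 15.8% ± 1.19 in WT (SD, n = 4 each; exact permutation p = 0.114, adjusted p = 0.274). For Gria4 the shares were 12.7% ± 1.62 in the libraries labelled Nsun5-KO and 10.7% ± 0.996 in WT (SD, n = 4 each; exact permutation p = 0.114, adjusted p = 0.274). Both pairs of groups overlapped. For Gria3 only WT replicate 4 (17.5%) lay within the range of the other group. For Gria4 only replicate 3 labelled Nsun5-KO (10.95%) lay within the WT range. Leaving out that library separates the groups by construction, so it gives no support for a difference. The Gria4 difference of 1.94 percentage points was 1.26 without replicate 2 labelled Nsun5-KO. Of the 6 ratios between AMPA subunits, which were computed after these values were seen and carry no test, only that of Gria1 to Gria2 had separate groups. It was 1.49, 1.59, 1.65 and 1.64 in the libraries labelled Nsun5-KO, against 2.15, 1.96, 1.94 and 1.80 in WT. The ratio of Gria2 to Gria3 was 1.52 to 1.62 in the libraries labelled Nsun5-KO and 1.44 to 1.68 in WT, and that of Gria3 to Gria4 was 1.13 to 1.53 and 1.31 to 1.58 in the same order.

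**Figure D3:**
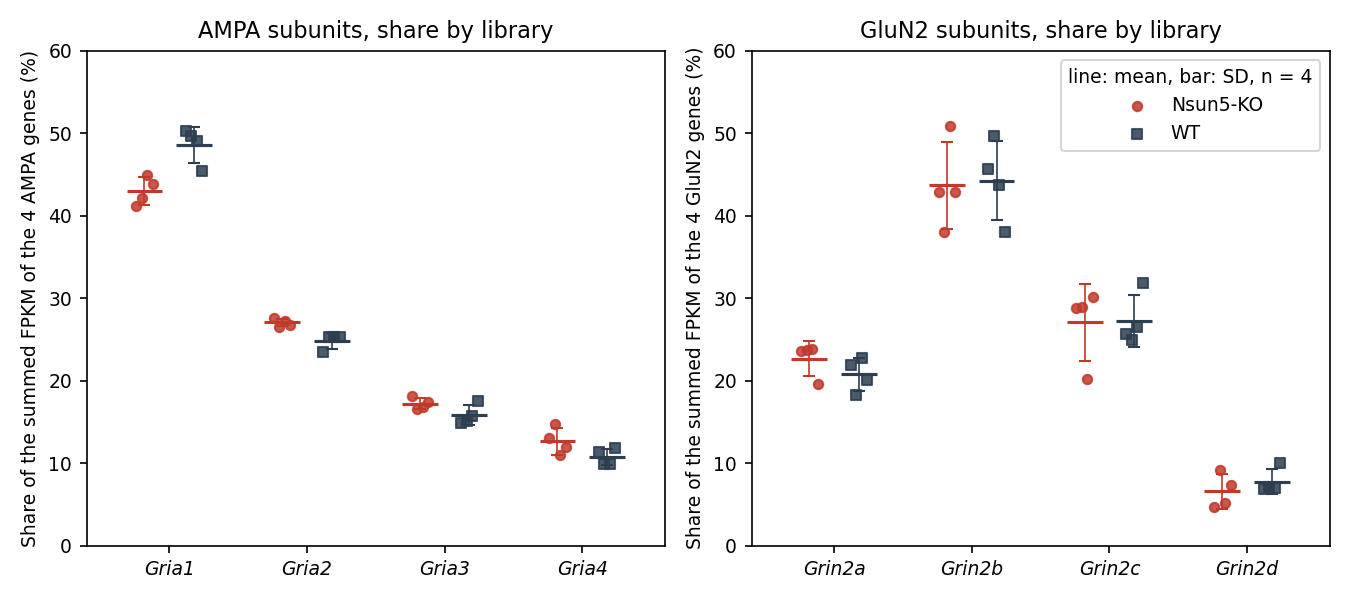
Share of each subunit in the summed FPKM of its family, AMPA on the left and GluN2 on the right, with a point for each library, a line for the mean and a bar for the SD of 4 libraries. Gria1 (41.2% to 45.0% in Nsun5-KO, 45.4% to 50.3% in WT) and Gria2 (26.5% to 27.6% in Nsun5-KO, 23.4% to 25.4% in WT) have separate groups, and the other 6 shares overlap.

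Grin1 was the most abundant NMDA gene by FPKM. It encodes GluN1, without which no functional NMDA receptor forms, and lies at chr2:25291181-25319187. It had 31.7, 30.7, 29.8 and 29.0 FPKM in replicates 1 to 4 labelled Nsun5-KO, against 24.0, 28.2, 28.0 and 29.1 FPKM in WT replicates 1 to 4. The groups overlapped only between replicate 4 labelled Nsun5-KO and WT replicate 4. The log2 fold change was 0.14 (SE 0.07, 95% interval -0.02 to 0.30, edgeR adjusted p = 0.532). It was 0.08 without WT replicate 1, the lowest library. An antisense gene, Grin1os, shares 1307 exonic bases with Grin1 and had at most 25 counts, against at least 4046 for Grin1. The library kit does not mark strand.

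The GluN2 genes overlapped between the groups in each case. Grin2a, the GluN2A gene (chr16:9567898-9995560), had 7.55, 6.80, 9.15 and 6.18 FPKM in the libraries labelled Nsun5-KO and 6.69, 5.51, 8.08 and 5.48 FPKM in WT. Replicate 3 was the highest in both groups. The log2 fold change was 0.20 (SE 0.15, 95% interval -0.13 to 0.53, edgeR adjusted p = 0.687), and leaving out replicate 3 moved it to 0.33 when it was the WT library and to 0.09 when it was the one labelled Nsun5-KO. Leaving out WT replicate 2 gave 0.13, WT replicate 4 gave 0.12, and replicates 1 and 3 labelled Nsun5-KO together gave 0.0078.

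Grin2b, the GluN2B gene (chr6:135713233-136173511), had 13.7, 10.9, 19.5 and 13.6 FPKM in the libraries labelled Nsun5-KO and 14.0, 14.9, 15.5 and 10.4 FPKM in WT. Replicate 3 labelled Nsun5-KO was the highest of the 8 libraries for Grin2b, as it was for Gria2, Gria3 and Grin2a. Grin2b had a log2 fold change of 0.07 with a 95% interval of -0.35 to 0.49, the widest of the 10 genes. Without replicate 3 labelled Nsun5-KO the value was -0.11.

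Grin2c, the GluN2C gene (chr11:115249169-115267243), had 9.24, 8.31, 7.74 and 9.53 FPKM in the libraries labelled Nsun5-KO and 7.84, 7.51, 9.37 and 8.68 FPKM in WT. GluN2C is known from cerebellar granule cells, the thalamus and astrocytes. Of the 5 cerebellar markers, Gabra6, Pcp2, Cbln3 and Ppp1r17 had at most 30, 19, 49 and 39 counts in any library. Car8 had 165 to 315 counts and Grin2c 596 to 854. The source of the Grin2c RNA in these libraries was not tested. The log2 fold change of Grin2c was 0.06 (95% interval -0.15 to 0.26). Grin2d, the GluN2D gene of interneurons and the diencephalon (chr7:45831883-45878378), was the lowest subunit, with 1.49, 2.63, 1.97 and 2.31 FPKM in the libraries labelled Nsun5-KO and 2.10, 2.14, 2.48 and 2.74 FPKM in WT. Its 159 to 324 counts per library were the fewest of the 10 genes, and its log2 fold change was -0.17 (SE 0.16, 95% interval -0.53 to 0.18). It was -0.04 without replicate 1 labelled Nsun5-KO and -0.30 without replicate 2 labelled Nsun5-KO. In these 2 libraries Grin2d was lowest and highest of its group, as was the summed FPKM of the 6 thalamic markers (19.4 and 53.0). Among WT libraries replicate 4 had the highest Grin2d with the lowest thalamic sum (31.4). WT replicate 1 had the lowest Grin2d with a sum of 37.0, and WT replicate 3 had 2.48 FPKM with the highest sum (37.7). The part of thalamic content in Grin2d was not tested. The antisense gene Gm45441 shares 643 exonic bases with Grin2d and had at most 53 counts.

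The GluN2 shares overlapped between the groups of 4 libraries. Grin2b was the largest, with 43.7% ± 5.28 of the GluN2 sum in the libraries labelled Nsun5-KO and 44.3% ± 4.82 in WT (SD, n = 4 each; exact permutation p = 0.857). Grin2c followed with 27.1% ± 4.62 in the libraries labelled Nsun5-KO and 27.2% ± 3.13 in WT, and Grin2a with 22.7% ± 2.08 and 20.8% ± 1.98 in the same order. Grin2d made up 6.58% ± 2.09 in the libraries labelled Nsun5-KO and 7.76% ± 1.53 in WT. The smallest exact permutation p of the GluN2 shares was 0.2, for Grin2a, and their adjusted p-values were 0.343 to 0.971. The difference in the Grin2a share was 1.92 percentage points. It was 2.96 without replicate 4 labelled Nsun5-KO (exact permutation p = 0.0571, adjusted p = 0.229) and 1.10 without WT replicate 2. Replicate 4 was the only library labelled Nsun5-KO within the WT range, so leaving it out separates the groups by construction.

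Grin3a, the gene of the modulatory subunit GluN3A (chr4:49661611-49845744), had 3.43, 3.74, 4.68 and 4.28 FPKM in the libraries labelled Nsun5-KO, against 5.93, 5.94, 3.58 and 4.32 FPKM in WT. WT replicates 1 and 2 were the highest, and WT replicates 3 and 4 lay within the range of the libraries labelled Nsun5-KO. The log2 fold change was -0.30 (SE 0.17, 95% interval -0.68 to 0.08, edgeR adjusted p = 0.585). It was -0.42 without WT replicate 3, -0.20 without WT replicate 1 or 2, and 0.02 without both. Among WT libraries the sum of hypothalamic markers was high in replicates 1, 2 and 3, with 5.93, 5.94 and 3.58 FPKM of Grin3a. It was low in WT replicate 4, with 4.32 FPKM of Grin3a. The part of hypothalamic content in Grin3a was not tested.

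Ratios across the families also overlapped. The summed AMPA genes had 149 ± 16.2 FPKM in the libraries labelled Nsun5-KO and 158 ± 11.6 FPKM in WT, and the summed NMDA genes had 67.0 ± 4.22 and 63.1 ± 3.11 FPKM in the same order (SD, n = 4 each). The log2 ratio of AMPA to NMDA was 1.09, 1.11, 1.24 and 1.14 in replicates 1 to 4 labelled Nsun5-KO, against 1.43, 1.41, 1.21 and 1.24 in WT replicates 1 to 4. WT replicates 1 and 2 were the highest, while WT replicates 3 and 4 lay below replicate 3 labelled Nsun5-KO. The difference of means was -0.17 (exact permutation p = 0.0857, adjusted p = 0.274), and it was -0.078 without WT replicates 1 and 2. The log2 ratio of Grin3a to Grin1 was -2.92 ± 0.249 in the libraries labelled Nsun5-KO and -2.50 ± 0.440 in WT (SD, n = 4 each; exact permutation p = 0.171, adjusted p = 0.343). The difference of -0.42 became -0.26 when WT replicate 1 was left out and -0.057 when both it and WT replicate 2 were. For Grin2a to Grin2b it was -0.94 ± 0.210 and -1.09 ± 0.240, and for the GluN2 sum to Grin1 it was 0.10 ± 0.199 and 0.17 ± 0.212, in the same order (exact permutation p = 0.4 and 0.714, n = 4 each).

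**Figure D4:**
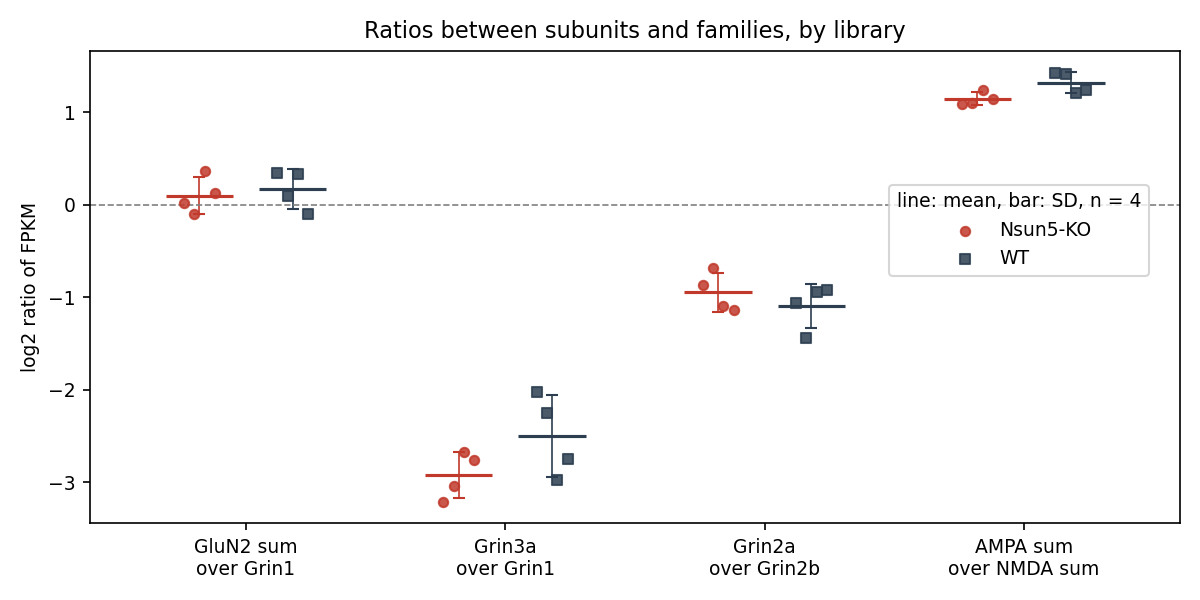
Log2 ratios of FPKM between subunits and between families, with a point for each library, a line for the mean and a bar for the SD of 4 libraries. Every ratio overlaps between the groups; for AMPA over NMDA the values are 1.09 to 1.24 in Nsun5-KO and 1.21 to 1.43 in WT.

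By mean FPKM over the 8 libraries the order was Gria1 (70.5), Gria2 (39.7), Grin1 (28.8), Gria3 (25.2), Gria4 (17.8), Grin2b (14.1), Grin2c (8.53), Grin2a (6.93), Grin3a (4.49) and Grin2d (2.23). The ranges of Gria1 and Gria2 were separate from those of the genes next below them, and so were Gria3 from Gria4, Grin2b from Grin2c and Grin3a from Grin2d. Grin1 and Gria3, Gria4 and Grin2b, Grin2c and Grin2a, and Grin2a and Grin3a overlapped. The order depends on the length used, because the deposited length of Gria2 is 15548 bases and that of Grin1 is 9700 bases, while their longest protein-coding transcripts in GENCODE M21 have 10371 and 4276 bases. With transcript lengths Grin1 ranked above Gria2.

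Genes that anchor, modify or regulate the receptors were taken from 7 lists holding 87 genes, of which 83 were tested. Of these 57 lay above WT and 26 below, and 0 passed the edgeR test over all genes. At an unadjusted p below 0.05, 9 were higher and 3 lower, or 14.5% against 10.4% of all genes. The median log2 fold change was 0.07.

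Genes of AMPA receptor trafficking and clustering had 12 of 14 above WT and a median of 0.06, or 0.033 without WT replicate 3. Nptx1, a pentraxin that clusters AMPA receptors, had 82.4 ± 12.7 FPKM in the libraries labelled Nsun5-KO and 62.7 ± 3.94 FPKM in WT (SD, n = 4 each), and its groups did not overlap. Its log2 fold change was 0.39 (SE 0.10, edgeR adjusted p = 0.313, DESeq2 adjusted p = 0.0563). Nptx1 was called by edgeR without the low-count filter (adjusted p = 0.0391), a setting that called 68 of 28997 genes (0.235%). The median log2 fold change was 0.20 for the general neuronal markers and 0.34 for the cortical and hippocampal markers. The part of neuronal content in Nptx1 was not tested. Syndig1, which encodes a synapse differentiation protein, was at 0.28, and Epb41l1, a membrane cytoskeleton protein that binds GluA1, was at 0.11.

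Among 17 tested AMPA auxiliary genes 8 lay above WT and 9 below, with a median of -0.05. Leaving out WT replicate 1 moved this median to -0.087, WT replicate 3 to 0.077 and replicate 4 labelled Nsun5-KO to 0.0053. Cacng2, the gene of stargazin, which carries AMPA receptors to synapses, had a log2 fold change of 0.24 (SE 0.10, edgeR adjusted p = 0.430). Prrt1, a component of AMPA receptor complexes, was at -0.20 (edgeR adjusted p = 0.461), and Cnih3, a cornichon protein that slows receptor closing, was at 0.23.

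Scaffold and signalling genes of the postsynaptic density lay above WT in 21 of 24 cases, with a median of 0.10. The 4 with an unadjusted p below 0.05 lay above WT, among them Kalrn, an exchange factor of dendritic spines (log2 fold change 0.38, edgeR adjusted p = 0.387), Dlgap2, a scaffold protein (0.24, adjusted p = 0.418), and Homer1, which links metabotropic receptors to the scaffold (0.40, adjusted p = 0.449). The median of this list was 0.17 without replicate 2 labelled Nsun5-KO, 0.061 without WT replicates 1 and 2, and -0.0092 without replicates 1 and 3 labelled Nsun5-KO. The general neuronal markers also lay above WT. The striatal markers lay below, with sums that overlapped between the groups (104 to 369 FPKM with the label Nsun5-KO, 65.6 to 395 FPKM in WT). The part of these markers in the scaffold values was not tested.

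**Figure D5:**
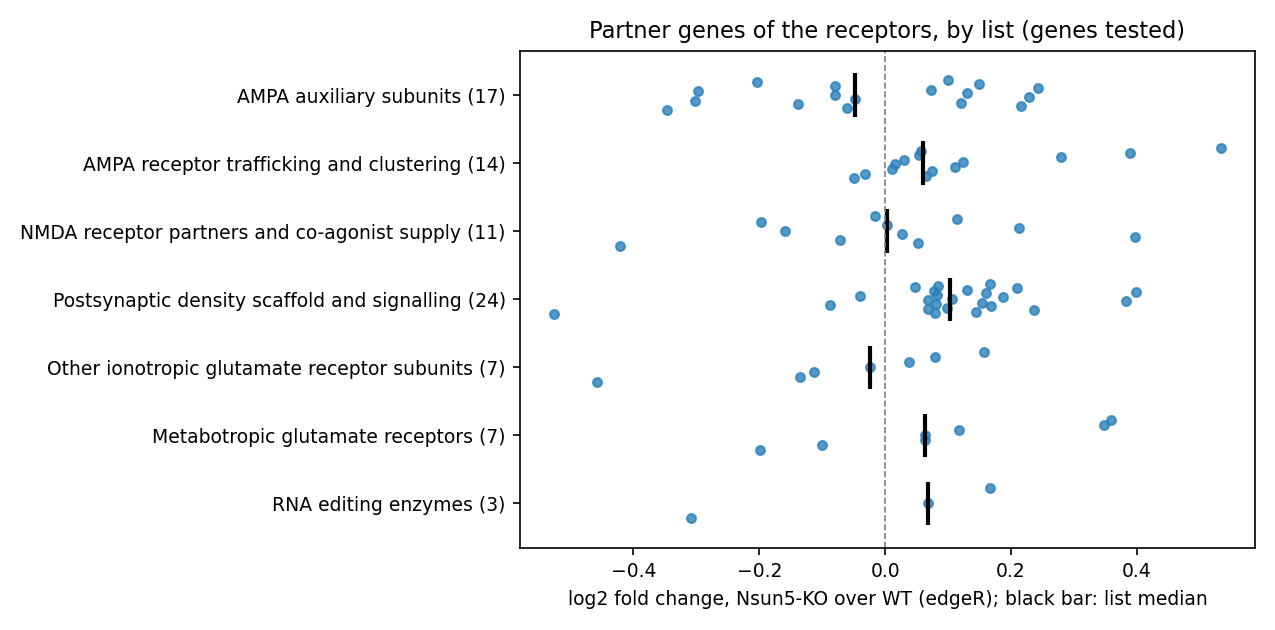
Log2 fold change, Nsun5-KO over WT, of each tested partner gene (points) by list, with the list median as a black bar and the number tested in brackets. The medians run from -0.05 for AMPA auxiliary genes to 0.10 for the postsynaptic density.

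Genes for NMDA receptor partners and co-agonist supply had 6 of 11 above WT and a median of 0.00, whose sign depended on which single library was left out. Ephb2, a receptor kinase that binds GluN1, was at 0.40 (edgeR adjusted p = 0.446), Kif17, a motor that carries GluN2B, at 0.21, and Nos1, the nitric oxide synthase tethered to NMDA receptors, at -0.42 (SE 0.30). Other ionotropic receptor genes had 3 of 7 above WT and a median of -0.02, which moved to -0.14 on leaving out replicate 4 labelled Nsun5-KO and to 0.0020 on leaving out replicate 2 of that label. The kainate receptor gene Grik1 had 1.72 ± 0.119 FPKM in the libraries labelled Nsun5-KO and 2.35 ± 0.520 FPKM in WT (log2 fold change -0.46, edgeR adjusted p = 0.381), Grik3 was at 0.16 and the delta receptor gene Grid1 at -0.11. Grin3b, the remaining NMDA subunit gene, had 2 to 12 counts and was not tested.

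Metabotropic glutamate receptor genes had 5 of 7 above WT and a median of 0.06, which was -0.0064 when WT replicate 1 was left out. Among them were Grm8 at 0.35 (edgeR adjusted p = 0.413) and Grm2 at 0.36 (adjusted p = 0.437). Of the editing enzyme genes, Adarb1, whose product edits the Gria2 codon shown above, had 23.7 ± 2.30 FPKM in the libraries labelled Nsun5-KO and 21.03 ± 4.05 FPKM in WT (SD, n = 4 each; log2 fold change 0.17, SE 0.12, edgeR adjusted p = 0.679). Adar was at 0.07 and Adarb2, a family member without known editing activity, at -0.31 (edgeR adjusted p = 0.449).

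Among 12810 other protein-coding genes the log2 CPM most like that of Gria2 over the 8 libraries belonged to Nek1 (Pearson r = 0.978), Zfp831 (0.971) and Amz2 (0.944). Those most like Grin1 were Ece1 (0.965), Slc25a29 (0.965) and Adgrl2 (0.959). By rank (Spearman) the coefficients with Gria2 were 0.83 for Nek1, 0.86 for Zfp831 and 0.93 for Amz2. With Grin1 they were 0.90 for Ece1, 0.98 for Slc25a29 and 0.74 for Adgrl2. A Pearson coefficient above 0.9 was found for 29 genes with Gria2 and for 76 with Grin1. These are the highest of many values over 8 libraries that share depth and tissue content, so they describe the libraries and carry no test.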

How the data were processed

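RNA was sequenced from 8 brain libraries, 4 labelled Nsun5-KO and 4 WT. Per the submitters' processing notes, HISAT2 2.0.5 and mouse build mm10 were used. The counting program is not given in the sources used here. TRIzol extraction and the NEBNext Ultra kit are named per the labels' protocols. The deposited count values are whole reads per gene, without normalisation. The deposited FPKM values are scaled by gene length and library size by the authors, and a deposited table of group means was not used.

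The test was that of edgeR 4.0.16 (R 4.3.3): filterByExpr by group (16062 genes kept), trimmed mean of M values, robust quasi-likelihood F test without covariates, Benjamini-Hochberg adjustment over all genes tested. Fold changes are log2, Nsun5-KO over WT. Levels, shares and ratios used FPKM, since levels of different genes are compared per length only. The 12 shares and ratios were tested by exact two-sided permutation over 70 labelings. The fit was tested on simulated data.

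The subunits and the gene lists were chosen with earlier results of these data known. The text names all 10 subunits, the 3 genes of each list with the smallest p, Nsun5, the 3 genes most like Gria2 and Grin1 in pattern (log2 CPM, prior count 2), and markers near 0; 1 listed gene and 1 sequence are not reported here. Alternatives were DESeq2 1.42.0, its size factors, no filter, limma 3.58.1 with voom weights or on log2(FPKM + 1) and log2(FPKM + 0.1), a block for the replicate number, and leaving out single libraries. Leaving out pairs of libraries, DESeq2 with the block, and transcript lengths were chosen after seeing the data. No libraries of a group agreed within sampling noise (chi-square per degree of freedom 7.74 to 22.3).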

Additional observations from a re-analysis of the deposited data

Results flagged for a closer look

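Among 44 sets of 4 libraries (10 subunit levels and 12 shares or ratios in each group), 4 held a library whose gap to its nearest neighbour exceeded Dixon's 95% critical value, as a part of the range. Chance gives this in about 1 of 20 sets. Replicate 4 labelled Nsun5-KO had the lowest Grin2a share of the GluN2 sum of its group, at 19.6% against 23.6% to 23.9% (gap 0.935 of the range). Replicate 3 labelled Nsun5-KO had the lowest Grin2c share, at 20.2% against 28.9% to 30.2% (0.868). WT replicate 1 had the lowest Gria2 share of the AMPA sum, at 23.4% against 25.3% to 25.4% (0.957), and without it the difference in that share was 1.75 percentage points in place of 2.22. WT replicate 4 had the highest Grin2d share, at 10.05% against 6.87% to 7.12% (0.920).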

How the results depend on the processing

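None of the 10 subunits and 12 shares or ratios passed its adjusted threshold under any alternative. For the shares and ratios this was fixed by design with the replicate block and with 2 libraries left out, where the smallest unadjusted p is 0.125 and 0.0667. Elsewhere the smallest is 0.0286, which passes the adjustment over 12 only when most of the 12 values reach it. A single share could therefore not pass under any setting. Of 510 recomputed values 481 kept their direction and side of the threshold or moved by less than the spread. The count of genes called was 94 with DESeq2, 68 without the low-count filter, 33 with DESeq2 and the replicate block, and 0 to 2 with single libraries left out. Listed partner genes called numbered 1, Nptx1, without the filter and with DESeq2 and the block. With single libraries left out, log2 fold changes were -0.37 to -0.22 for Gria1, -0.047 to 0.081 for Gria2, -0.026 to 0.089 for Gria3 and -0.11 to 0.18 for Grin2b. The differences in share were -2.97 to 1.28 percentage points for Grin2b and -1.19 to 2.14 for Grin2c. List medians were -0.048 to 0.016 for NMDA partners, -0.087 to 0.077 for AMPA auxiliary genes, -0.14 to 0.0020 for other ionotropic receptors and -0.0064 to 0.0996 for metabotropic receptors. Without WT replicates 1 and 2, Grin2c was at -0.057, Grin3a at 0.024, the Grin2b share difference at 2.80 and the log2 ratio of Grin2a to Grin2b at -0.013. Without replicates 1 and 3 labelled Nsun5-KO, Gria2 was at -0.079, Gria3 at -0.072, Grin2b at -0.17, Grin2d at 0.057, the Grin2c share difference at 2.38, that of Grin2d at 0.49 and the postsynaptic density median at -0.0092. The cause of these changes was not tested. Same-numbered libraries did not deviate together over all genes (correlations -0.21 to 0.06), which cannot decide whether the numbers pair them. With the replicate block edgeR called 0 genes, Gria1 was at -0.27 (adjusted p = 0.621) and Grin2a at 0.20 (adjusted p = 0.609), and the sign-flip p of the Gria1 and Gria2 shares was 0.125, the smallest that 4 pairs allow. Shares from counts divided by gene length equal those from FPKM by construction. Grin2d, with the fewest counts, had a 95% interval of -0.53 to 0.18. The widest interval was that of Grin2b (-0.35 to 0.49), with 4578 to 7813 counts.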
